A study of Bos taurus with 27 samples.

Results

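The urea transporter gene SLC14A1 and the aquaporin genes AQP1, AQP3, AQP4, AQP5, AQP7, AQP8, AQP9 and AQP11 were followed in the rumen epithelium (RE) of fattening cattle. A probe was taken when it was not a control and its gene name in the scanner output equalled one of these names. This gave 9 probes, 1 for each of 9 genes, out of 14952 gene names on the array. RE of 9 castrated and fistulated Japanese Black cattle was biopsied when the animals were 14 months old (early stage), again at 21 months (middle) and again at 29 months (late). RNA of each biopsy went onto a 1-color bovine oligonucleotide array, which made 9 arrays a stage. Within cattle, the comparisons ask what changed in the first period (middle against early), the second period (late against middle) and the total period (late against early). Diet and age differed between stages together, so their parts cannot be told apart.

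The protein of SLC14A1, urea transporter B, lets urea cross cell membranes along its gradient, and in ruminants urea from blood enters the rumen, where microbes split it to ammonia and use the nitrogen. Aquaporins form membrane channels for water, and the aquaglyceroporins AQP3, AQP7 and AQP9 also pass glycerol and urea. The RE is a stratified epithelium that absorbs short-chain fatty acids and exchanges water, ions and urea with the rumen contents.

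The probe of AQP3, the member with the largest change among those measured, is shown beside the probe of AQP2, a water channel outside the 9 genes whose signal moved in the same directions. Both have 60 bases, and capitals mark the longest run of bases they have in common.
AQP3: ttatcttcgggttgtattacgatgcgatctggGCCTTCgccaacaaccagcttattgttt
AQP2: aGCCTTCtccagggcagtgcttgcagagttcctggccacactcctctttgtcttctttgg
That run has 6 bases, so the probes read different sequences. The AQP3 probe lies on the minus strand at chr8:76526980-76527378 of UMD 3.1, the build of the array annotation. Its genomic span of 399 bases exceeds the probe by 339 bases, so it crosses an intron. The AQP2 probe lies on the minus strand at chr5:30102968-30103027.

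Detection split the 9 genes into groups. The scanner software calls a spot well above background when its signal clearly exceeds the local background. SLC14A1, AQP1, AQP3, AQP5 and AQP8 met this on all 27 arrays. AQP7, known from fat and kidney, met it on 8 of 9 early, 1 of 9 middle and 9 of 9 late arrays. AQP9, known from liver and leukocytes, met it on 1 early array and nowhere else. AQP4, the main water channel of the brain, and AQP11, an intracellular aquaporin, met it on 0 of 27 arrays. The 9 genes are compared only across stages, not in level with each other, because probes differ in how strongly they bind, and for the same reason the brightest marker of a list below is that of the strongest probe signal.

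**Figure D1:**
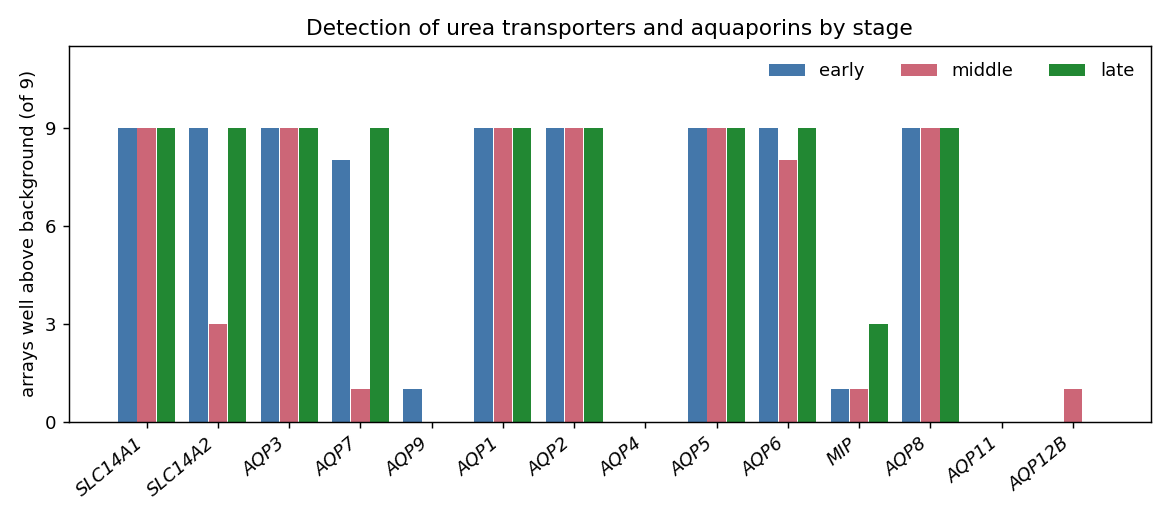
Bars give the number of arrays, of 9 a stage, on which each urea transporter or aquaporin probe was well above background, colored by stage. SLC14A1, AQP1, AQP3, AQP5, AQP8 and AQP2 reach 9 at each stage, while AQP4 and AQP11 stay at 0.

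Middle-stage arrays were dimmer than the rest. Taken per array, the median of the processed signal (linear intensity) lay between 35.2 and 48.6 on early arrays (median 39.3), between 8.22 and 28.7 on middle arrays (median 16.7) and between 32.2 and 47.0 on late arrays (median 39.6). Spots well above background made up 48.8 to 71.6% of a middle array, against 68.9 to 78.2% of an early and 68.5 to 73.8% of a late one. A level, as used from here on, is log2 intensity minus the median of its array, and log2FC is a difference of levels. Over all 15008 probes the median log2FC was 0.32 for the first period, −0.27 for the second and 0.03 for the total period.

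Called means an adjusted *P* below 0.05 in limma over all probes. For the first period limma called 7 of the 9 genes, while it called 66.5% of all probes. AQP3, AQP7 and AQP8 were called lower at the middle stage, as were 21.3% of all probes. AQP1 and the scarcely detected AQP4, AQP9 and AQP11 were called higher, as were 45.3% of all probes. For the second period limma called 7 of 9 genes and 71.5% of all probes. AQP3 and AQP7 were then called higher, as were 27% of all probes, and AQP4, AQP5, AQP8, AQP9 and AQP11 lower, as were 44.6%. For the total period it called 3 of 9 genes and 20.1% of all probes. AQP1 was called higher, as were 11.2% of all probes, and AQP3 and AQP8 lower, as were 8.93%. These shares are not far from those of all probes, so the counts are no result about the family, and each gene is described by role instead.

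**Figure D2:**
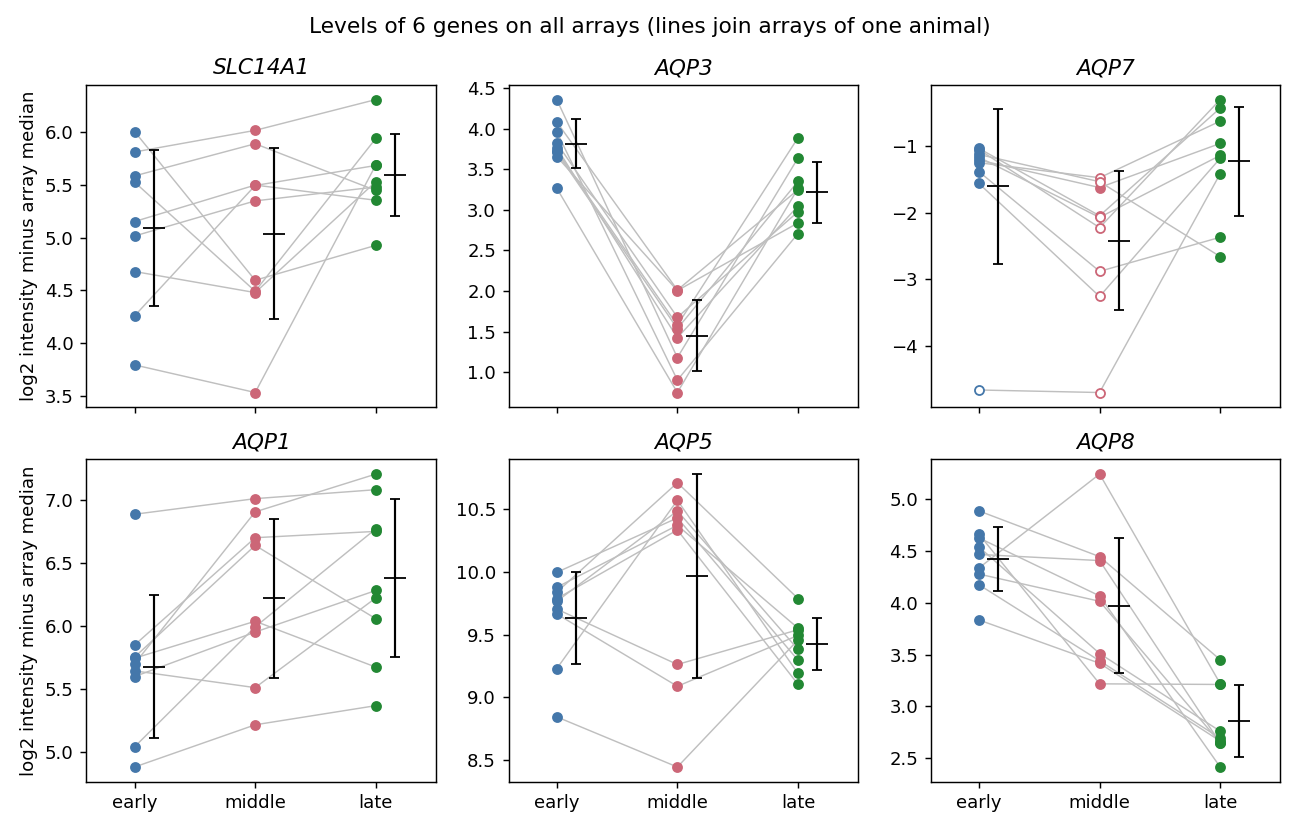
Each panel plots, for 1 gene, the level (log2 intensity minus array median) at the 3 stages. Gray lines join arrays of the same animal, open points were not well above background, and black bars give mean and SD of 9 arrays. AQP3 dips at the middle stage in 9 of 9 cattle.

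The urea transporter gene SLC14A1 was measured at every stage and differed widely between cattle. Its level lay between 3.79 and 6.01 in early RE (median 5.15), between 3.53 and 6.02 in middle RE (median 5.35) and between 4.93 and 6.31 in late RE (median 5.53). Late arrays lacked the low values of some earlier ones, and the ranges of all stages overlapped. First-period log2FC was −0.05 (SE 0.26, limma adjusted *P* = 0.865), with 5 of 9 cattle higher. It turned positive in 7 of 25 alternative settings, 75th percentile scaling (0.01) among them. The value ran from −0.47 after normexp background correction to 0.655 with slide as fixed block and 0.671 within slide 2, with its 1 early array. Second-period log2FC was 0.56 (SE 0.26, limma adjusted *P* = 0.0619), and 7 of 9 cattle were higher (two-sided exact sign-flip *P* = 0.0781). For the total period log2FC was 0.50 (SE 0.26, limma adjusted *P* = 0.188), again with 7 of 9 cattle higher. SLC14A1 was thus called in no comparison, and no neighbors in the order of its levels differed beyond the spread between cattle. limma did call the second-period difference without animal 2 (0.59), without animal 3 (0.68) and after normexp background correction (1.15), while the lowest value was 0.25, without the 3 cattle with the brightest middle arrays, and adjusted *P* ran from 0.0111 to 0.459 over 22 alternatives.

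AQP3, an aquaglyceroporin known from basolateral membranes of epithelia, fell at the middle stage and then largely came back. Its level lay between 3.27 and 4.36 in early RE (median 3.76), between 0.75 and 2.01 in middle RE (median 1.54) and between 2.71 and 3.89 in late RE (median 3.25). Every middle array lay below every array of the other stages, while early and late ranges overlapped. First-period log2FC was −2.36 (SE 0.17, limma adjusted *P* = 6.69e-09), a 5.15-fold lower signal, with 9 of 9 cattle lower. Second-period log2FC was 1.77 (SE 0.17, limma adjusted *P* = 5.5e-08), a 3.40-fold higher signal, with 9 of 9 cattle higher. For each of these the exact sign-flip *P* was 0.0039, the smallest that 9 cattle can give. Against the median of all probes, faint ones included, the differences were −2.69 and 2.04. Late levels remained below early ones, with a log2FC of −0.60 (SE 0.17, limma adjusted *P* = 0.017) and 8 of 9 cattle lower (exact sign-flip *P* = 0.0117). That last difference was negative in 22 of 22 alternatives and called in 17 of them, with limma adjusted *P* from 0.00246 to 0.384. The call was lost without animal 7 (−0.52), after normexp correction (−0.35), with slide as random block (−0.69), and without the 3 cattle with the dimmest (−0.43) or the brightest (−0.64) middle arrays.

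Intensities before scaling follow the brightness of the array as well as the gene. The processed intensity of AQP3 was 349 to 913 on early arrays (median 584), 21.6 to 95.1 on middle arrays (median 47.0) and 205 to 524 on late arrays (median 353). Median intensity of AQP1, which was called higher, went from 2051 on early to 1123 on middle arrays, and that of AQP5 from 33456 to 20676, so unscaled values alone do not show a change. How far array brightness shares in the size of the fall was not tested.

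**Figure D3:**
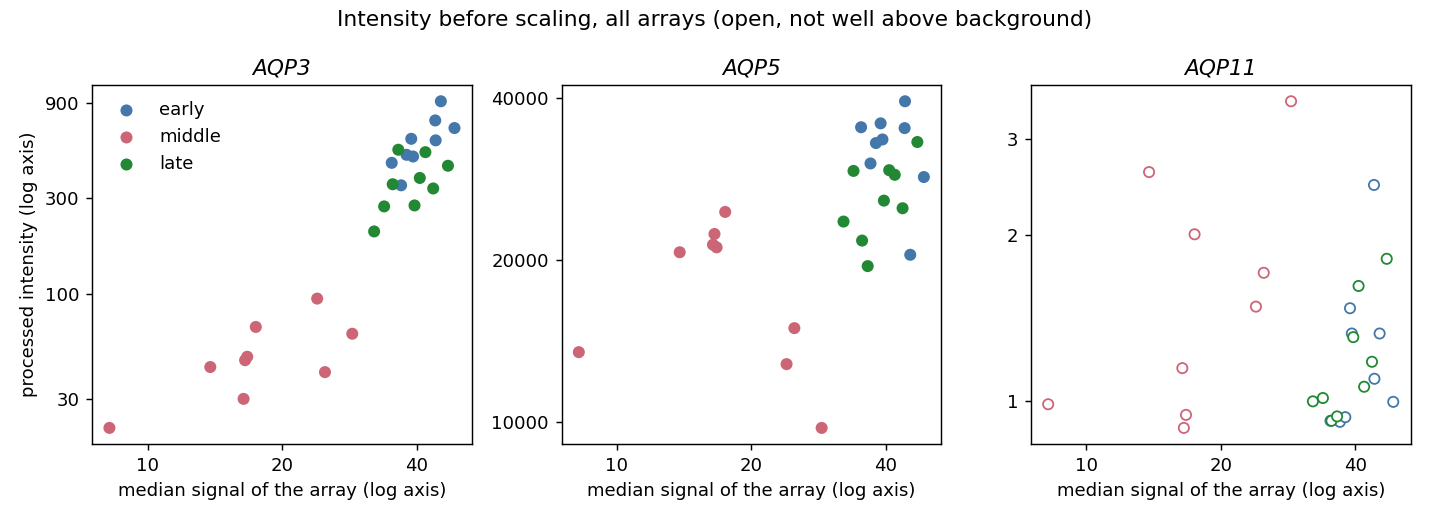
Processed intensity (linear units, log axis) is plotted against the median signal of the array (log axis) for AQP3, AQP5 and AQP11, colored by stage, with open points where the spot was not well above background. Middle-stage AQP3 ends at 95.1, below the lowest late value of 205, while AQP11 stays between 0.89 and 3.51.

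AQP7, the aquaglyceroporin of adipocytes, was faint. AQP7 levels lay between −4.67 and −1.04 in early RE (median −1.21), between −4.70 and −1.48 in middle RE (median −2.07) and between −2.66 and −0.30 in late RE (median −1.14). The lowest early value was that of animal 6, the only early array that did not measure AQP7. First-period log2FC was −0.82 (SE 0.34, limma adjusted *P* = 0.0404), with 9 of 9 cattle lower (exact sign-flip *P* = 0.0039). Second-period log2FC was 1.19 (SE 0.34, limma adjusted *P* = 0.00412), with 8 of 9 cattle higher. Since 1 of 9 middle arrays measured the gene, these values describe a signal near background, and after normexp correction their directions turned (0.08 and −0.04). The first-period call held in 11 of 24 alternatives. It was lost without animal 1, 2, 3, 5, 7 or 8 (−0.77, −0.73, −0.79, −0.87, −0.71 and −0.81). The same happened without the 3 cattle with the dimmest middle arrays (−0.84), under 75th percentile scaling (−0.75) and without the animal as a block (−0.82). It was also lost with slide as random block (−0.93) and as fixed block (−0.705). Within slide 2 the value was −1.476, and the missing call there is not read as a result. The second-period call held in 19 of 21 and was lost after normexp correction and with slide as random block (0.90). The total-period log2FC of 0.38 (SE 0.34, limma adjusted *P* = 0.495) was not called, and it was −0.04 with the slide as a random block.

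AQP8, a channel for water and ammonia known from colon and liver, ended lowest at the late stage. AQP8 levels lay between 3.83 and 4.88 in early RE (median 4.46), between 3.22 and 5.24 in middle RE (median 4.01) and between 2.42 and 3.45 in late RE (median 2.69). Every late array lay below every early one, and middle arrays overlapped both. Total-period log2FC was −1.56 (SE 0.18, limma adjusted *P* = 7.44e-06), a 2.95-fold lower signal, with 9 of 9 cattle lower (exact sign-flip *P* = 0.0039). It was called in 22 of 22 alternatives (−1.72 to −1.16, limma adjusted *P* from 1.11e-08 to 0.0218). Second-period log2FC was −1.11 (SE 0.18, limma adjusted *P* = 3.01e-05), with 9 of 9 cattle lower, and it lost its call after normexp correction (−0.26). First-period log2FC was −0.45 (SE 0.18, limma adjusted *P* = 0.0382), with 8 of 9 cattle lower (exact sign-flip *P* = 0.0781). This first-period call held in 11 of 25 alternatives. It was lost without animal 1, 2, 3, 4, 5, 6 or 7 (−0.45, −0.41, −0.43, −0.32, −0.38, −0.45 and −0.47). It was also lost by the methods' test, with 2 stages per fit and without the animal as a block (each −0.45). Further losses came with slide as random block (−0.20) and without the 3 cattle with the brightest middle arrays (−0.31). The direction turned with the slide as a fixed block (0.15), a fit that tells slide from stage only through the 1 early array on slide 2. Within slide 2 the value was −0.60, and the missing call there is not read as a result. Against the median of all probes the first, second and total differences were −0.77, −0.84 and −1.60.

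AQP1, a water channel known from endothelium and red blood cells, rose. Its level lay between 4.88 and 6.88 in early RE (median 5.70), between 5.21 and 7.01 in middle RE (median 6.04) and between 5.37 and 7.20 in late RE (median 6.28). The ranges overlapped widely, while most cattle moved up. First-period log2FC was 0.54 (SE 0.17, limma adjusted *P* = 0.00806), with 8 of 9 cattle higher (exact sign-flip *P* = 0.0117). Total-period log2FC was 0.70 (SE 0.17, limma adjusted *P* = 0.00564), a 1.63-fold higher signal, with 8 of 9 cattle higher (exact sign-flip *P* = 0.00781). Against the median of all probes these were 0.22 and 0.67. Both calls were lost without the animal as a block, where the values stayed at 0.54 and 0.70, and without the 3 cattle with the brightest middle arrays (0.45 and 0.62). After normexp correction both were lost too, with a smaller first-period value of 0.10 and a larger total-period value of 0.945. The first-period call was also lost with slide as fixed block (0.81), and the total-period call with slide as random block (0.90). Within slide 2, with its 1 early array, the first-period value was 1.24, and the missing call there is not read as a result. The first-period call held in 20 of 25 alternatives, slide 2 counted, and the total-period call in 18 of 22. Second-period log2FC was 0.16 (SE 0.17, limma adjusted *P* = 0.393), and it was negative under 75th percentile scaling (−0.03) and cyclic loess (−0.03). After normexp correction it was 0.845 and called (limma adjusted *P* = 0.0422).

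AQP5, a water channel of glands and other secretory epithelia, split the middle-stage cattle. Its level lay between 8.84 and 10.00 in early RE (median 9.77), between 8.44 and 10.71 in middle RE (median 10.37) and between 9.10 and 9.79 in late RE (median 9.46). In middle RE cattle 2, 5 and 6 had 9.26, 9.09 and 8.44, and the other 6 had 10.33 or more. Those 3 cattle also had the brightest middle arrays, with median signals of 25.0, 24.0 and 28.7. First-period log2FC was 0.33 (SE 0.21, limma adjusted *P* = 0.178), with 6 of 9 cattle higher. Second-period log2FC was −0.54 (SE 0.21, limma adjusted *P* = 0.0295), with 6 of 9 cattle lower (exact sign-flip *P* = 0.105). Total-period log2FC was −0.21 (SE 0.21, limma adjusted *P* = 0.548), with 8 of 9 cattle lower. Against the median of all probes the first, second and total differences were 0.008, −0.274 and −0.246. After normexp correction all directions turned (−0.31, 0.31 and 0.001). The second-period call held in 11 of 22 alternatives. Besides normexp, it was lost without animal 1, 3, 4, 7, 8 or 9 (−0.47, −0.46, −0.50, −0.51, −0.47 and −0.44), with slide as random block (−0.73), by the methods' test and with 2 stages per fit (each −0.54), and without the 3 cattle with the dimmest middle arrays (−0.30). Without cattle 2, 5 and 6, the holders of the lowest middle values, the first-period difference was 0.735 and the second-period one −1.099, sizes that their removal raises by construction. The first-period one was 0.05 without the 3 cattle with the dimmest middle arrays (4, 7 and 9) and 0.21 without animal 9 alone.

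**Figure D4:**
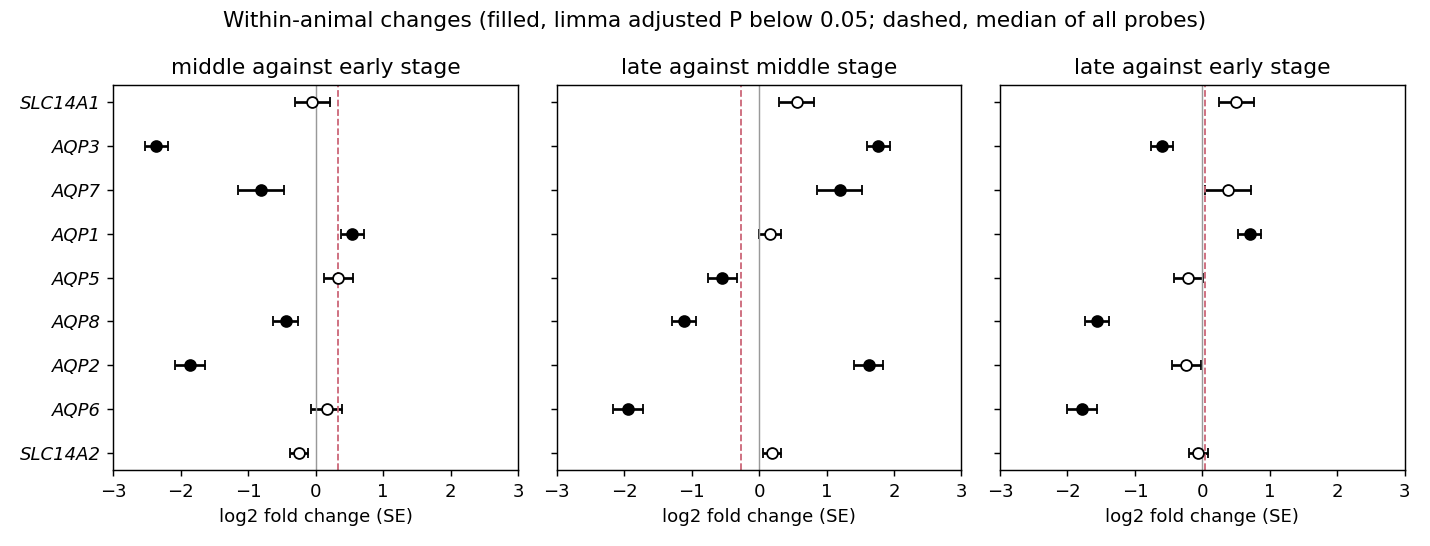
Points give the log2FC of urea transporter and aquaporin genes in each comparison, with the SE from limma over 9 cattle as bars. Filled points were called, and the dashed line marks the median of all 15008 probes. AQP3 and AQP2 lie left of it for the first period and right of it for the second.

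AQP4, AQP9 and AQP11 were called although almost no array measured them. Over all stages the processed intensity of AQP4 was 1.06 to 4.48 and that of AQP11 was 0.89 to 3.51. AQP9 had 1.03 to 3.51 apart from the early array of animal 4, with 16.2. Median intensity of AQP4 was 1.71, 2.02 and 1.63 at the early, middle and late stage, while the arrays' median signals were 39.3, 16.7 and 39.6. The levels of AQP4 scaled to these averaged −4.23, −2.99 and −4.50. No fold change is given for these genes, and a change of their transcripts was not detectable with these probes.

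Of 7 further aquaporin and urea transporter genes, 5 were found on the array by name. AQP2, the vasopressin-regulated channel of the kidney collecting duct, was well above background on all 27 arrays. Its level lay between 2.36 and 3.36 in early RE (median 3.14), between 0.35 and 2.09 in middle RE (median 1.33) and between 2.16 and 3.35 in late RE (median 2.83). As for AQP3, middle arrays lay below all others. The log2FC was −1.86 (SE 0.22, limma adjusted *P* = 1.58e-06) for the first period and 1.62 (SE 0.22, limma adjusted *P* = 3.35e-06) for the second, with 9 of 9 cattle in each direction. AQP6, known from intracellular vesicles of kidney cells, went down late. Its log2FC was −1.94 (SE 0.23, limma adjusted *P* = 6.11e-07) for the second and −1.78 (SE 0.23, limma adjusted *P* = 1.72e-05) for the total period, each with 9 of 9 cattle lower. AQP6 was measured on 9, 8 and 9 of 9 arrays of the stages in order. Its late intensities were faint, 6.99 to 16.2, and no alternative settings are given for it. SLC14A2, the urea transporter gene of the kidney, was measured on 9, 3 and 9 of 9 arrays of the stages in order, at intensities of 2.12 to 16.2, and was called in no comparison. MIP, the water channel of the eye lens, was measured on 1, 1 and 3 of 9 arrays and AQP12B on 0, 1 and 0, so no change is given for them. AQP10 and AQP12A were not analysed here.

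Slide and stage overlap in the design. Slide 1 carried cattle 1 to 8 of the early stage. Slide 2 carried early animal 9 with cattle 1 to 7 of the middle stage, and slide 3 carried the 2 remaining middle arrays. Late arrays had slides 4 and 5 to themselves, so slide and stage cannot be told apart for the second and total periods. Slide 2 sets the early array of animal 9 against 7 middle arrays of other cattle, so nothing is compared within cattle and the lone early array is assumed to vary like the middle ones. The AQP3 log2FC there was −2.48, and with an arm of 1 array neither its calls nor their absence is read as a result. Adding the slide as a fixed block gave −3.14 for AQP3, in a fit that tells slide from stage only through the same lone early array. Over all 25 first-period alternatives the AQP3 log2FC was negative, from −3.135 to −1.874. Arrays of the first scan day, slides 1 and 2, gave −2.50. As a random block, the slide left AQP3 at −2.36 and 1.66 for the first and second periods, and AQP8 at −1.53 for the total period, all called by limma.

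Levels also differed among cattle of the same stage. In early RE animal 6 had the lowest SLC14A1, AQP5, AQP7 and AQP8 and the highest AQP1 and AQP3. Over the 9 early arrays SLC14A1 and AQP3 had a Pearson *r* of −0.808 (exact permutation *P* = 0.00683) and a Spearman *rho* of −0.767 (exact permutation *P* = 0.0214). Without the 2 cattle farthest from the median SLC14A1, *r* was −0.785, and on slide 1 alone it was −0.889. In middle and late RE *r* was 0.221 and 0.076, and *rho* 0.017 and 0.200 (exact permutation *P* = 0.567 and 0.851 for *r*, 0.982 and 0.613 for *rho*). SLC14A1 and AQP5 in early RE had *r* of 0.857 and *rho* of 0.683 (exact permutation *P* = 0.00284 and 0.0503), and *r* fell to 0.373 without the 2 farthest cattle, so the early relation rests on them. For this pair *r* was 0.772 in middle and −0.068 in late RE (exact permutation *P* = 0.0125 and 0.871). Without the 2 farthest cattle these were 0.346 and 0.462. *rho* was 0.383 and −0.117 (exact permutation *P* = 0.312 and 0.776). SLC14A1 and AQP8 had *r* of 0.596, 0.712 and 0.762 in early, middle and late RE (exact permutation *P* = 0.0904, 0.0295 and 0.0123) and *rho* of 0.400, 0.733 and 0.667 (exact permutation *P* = 0.291, 0.0311 and 0.0589). Without the 2 farthest cattle *r* was 0.069, 0.679 and 0.775, and on the slide with most arrays of the stage it was 0.612, 0.876 and 0.794. After Benjamini-Hochberg adjustment over 35 such relations, 0 passed 0.05 by exact permutation, and the lowest adjusted *P* was 0.0731 for *r* and 0.294 for *rho*.

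In middle RE the cattle with high fibroblast markers also had high AQP1. The summed level of fibroblast markers, each of 7 markers as intensity over the array median, was 87.9 to 750 in early RE (median 277), 89.7 to 1021 in middle RE (median 457) and 70.8 to 404 in late RE (median 287), with COL1A2 brightest. Animal 1 had the lowest sum and the lowest AQP1 at each stage. In middle RE cattle 2, 5 and 6 had the highest sums, 833, 590 and 1021, together with AQP1 levels of 6.90, 6.70 and 7.01. Their arrays were also the brightest of the middle stage, and their summed markers of stratified epithelium were the highest of that stage (2763, 4398 and 2889). The part of array brightness in this relation was not tested. Between log2 sum and AQP1 in middle RE, *r* was 0.915 (exact permutation *P* = 0.000394) and *rho* was 0.950 (exact permutation *P* = 0.000353). Without the 2 cattle farthest from the median sum *r* was 0.827, and on slide 2 it was 0.933. The epithelial sum and AQP1 in middle RE had *r* of 0.649 and *rho* of 0.75 (exact permutation *P* = 0.0512 and 0.0255, adjusted 0.437 and 0.423), with *r* of 0.598 without the 2 farthest cattle and 0.671 on slide 2. For the fibroblast sum in early RE *r* was 0.893 and *rho* 0.633 (exact permutation *P* = 0.00813 and 0.076), with *r* of 0.946 on slide 1, and *r* fell to 0.416 without cattle 1 and 6, so that relation rests on them. In late RE *r* was 0.738 and *rho* 0.667 (exact permutation *P* = 0.0122 and 0.0589, adjusted 0.313 and 0.423), with *r* of 0.635 without the 2 farthest cattle and 0.720 on slide 4. Of 128 relations of 8 marker lists with these genes, the one in middle RE had an adjusted *P* of 0.0504 for *r* and 0.0451 for *rho* by exact permutation, and no other passed 0.05. This list was picked out after its values were seen, and the part of connective tissue in the level of AQP1 was not tested. In a biopsy, fewer cells of a type and less RNA per cell cannot be told apart.

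The labelled tissue was checked against markers of stratified epithelium. Of 16 on the array, 12 were measured, that is, well above background on 9 of 9 arrays of at least 1 stage, with KRT6A brightest and KRT4 on no array. Their summed level was 3250 to 4373 in early RE (median 4037), 834 to 4398 in middle RE (median 2137) and 3840 to 4849 in late RE (median 4202). It was low on most middle arrays, as AQP3 was, and its part in the AQP3 result was not tested. limma called 2 of the 12 higher and 5 lower for the first period, 3 and 2 for the second, and 2 and 1 for the total period. Beside these and the list counts that follow stand all probes, with 45.3% called higher and 21.3% lower for the first period, 27% and 44.6% for the second, and 11.2% and 8.93% for the total period. List counts and list medians cover measured genes alone, while all probes include those that were not measured. Basal-layer markers went apart in the first period, with log2FC of 1.30 for COL17A1, 1.07 for ITGA6, −1.12 for KRT14 and −0.56 for KRT5, all called, while KRT15 and TP63 were not called. ITGA6, KRT5, KRT15 and TP63 were added after their values were seen. Of the markers of the layers above, IVL, SPINK5 and KRT6A fell and came back as AQP3 did. First and second-period log2FC were −1.99 and 2.58 for IVL, −1.83 and 2.68 for SPINK5 and −1.28 and 1.63 for KRT6A, all called. KRT10 (0.06 and −0.08), DSG1 (0.08 and 0.41) and SBSN (0.56 and −0.60), also of these layers, were called in neither period. COL17A1 had −1.14 for the second period. SPINK5 had 0.85 and KRT14 −1.07 for the total period.

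Other cell types were followed through their own markers. For endothelium 10 of 11 were measured and CDH5 on no array, with sums of 44.5 to 82.8, 56.3 to 117 and 57.4 to 89.8 at the stages in order and CLDN5 brightest. limma called 4 higher and 1 lower for the first period (CLDN5 0.75, PECAM1 −0.58), 0 and 4 for the second (TIE1 −2.14) and 0 and 2 for the total period (TIE1 −1.55). PECAM1 was well above background on 6 of 9 middle arrays, and its first-period value was lower in 5 of 9 cattle. TIE1 was well above background on 7 of 9 late arrays, so its late values lie near background. For red blood cells 2 of 9 were measured, with sums of 40.3 to 69.9, 107 to 200 and 46.5 to 92.7, HBA brightest, and HBG and EPB42 on no array. HBA had log2FC of 1.22 and −1.13 for the first and second periods, and AHSP 0.44 for the total period. Among cattle, the endothelial sum and AQP1 had *r* of 0.151, 0.365 and 0.513 and *rho* of −0.183, 0.133 and 0.317 in early, middle and late RE (exact permutation *P* = 0.684, 0.327 and 0.154 for *r*, 0.644, 0.744 and 0.41 for *rho*). Without the 2 farthest cattle *r* was −0.367, −0.149 and −0.274. The red cell sum and AQP1 had *r* of −0.131, −0.439 and −0.357 and *rho* of −0.267, −0.617 and −0.233 (exact permutation *P* = 0.601, 0.23 and 0.339 for *r*, and from 0.0857 to 0.552 for *rho*), and *r* was −0.117, −0.670 and −0.668 without the 2 farthest cattle. On the slide with most arrays of the stage *r* was −0.292, 0.457 and 0.565 for endothelium and −0.025, −0.542 and −0.631 for red cells, and adjusted over the 128 relations the lowest *P* of these by exact permutation was 0.439.

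For adipocytes, cells known to carry AQP7, 2 of 7 markers were measured, FABP4 brightest, and ADIPOQ, PLIN1 and LEP on no array. Their sums were 72.4 to 645, 96.7 to 669 and 407 to 964. They went apart in the first period, with a log2FC of 0.99 for FABP4 and −2.58 for CIDEA, and limma called both. In the second period both were called higher (0.98 and 2.73), and FABP4 had 1.98 for the total period. For leukocytes 11 of 14 were measured, with sums of 105 to 211, 106 to 256 and 85.9 to 139, CD52 brightest and ITGAM on no array. limma called 3 higher and 2 lower for the first period (CD3E 0.62, FCGR3A −1.43, measured on 3 of 9 middle arrays), 2 and 4 for the second (CD3G 2.08, CD3E −1.68) and 0 and 5 for the total period (CD3E −1.06). CD3E was well above background on 7 of 9 late arrays. For muscle 4 of 9 were measured, with sums of 64.3 to 236, 48.9 to 557 and 72.2 to 121, ACTA2 brightest and MYH7 on no array. ACTA2 had 0.71 for the first period, CKM 0.84 for the second (1 of 9 middle arrays measured it, so this is a difference from near background), and ACTA1 −0.92, −1.50 and −2.42 in order. Of fibroblast markers 6 of 7 were measured, with COL1A1 at 0.57, −0.90 and −0.34 and LUM at −1.12, 1.62 and 0.50. Of hepatocyte markers 3 of 8 were measured, with sums of 29.7 to 83.2, 37.6 to 102 and 36.9 to 71.2, APOA2 brightest, and ALB and FGA on no array. APOA1 had 1.33 for the first period.

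Genes for ammonia transport and the urea cycle stand next to SLC14A1 in nitrogen metabolism, and 9 of 12 on the array were measured. limma called 2 higher and 2 lower for the first period, and 2 higher and 0 lower for each of the others. Over the measured genes the median log2FC was −0.14, 0.22 and 0.10, beside 0.32, −0.27 and 0.03 for all probes, measured or not. These sets are unlike, so the gap between them is not read as a result. ARG1, the arginase that releases urea, had mean levels of 6.66, 5.26 and 7.74. Its log2FC was −1.40 (SE 0.29, limma adjusted *P* = 0.000342, 7 of 9 cattle lower), then 2.49 (limma adjusted *P* = 5.37e-07, 9 of 9 higher), and 1.09 for the total period (limma adjusted *P* = 0.0112, 9 of 9 higher). RHBG, a membrane channel for ammonia, rose early, with a log2FC of 0.61 (SE 0.12, limma adjusted *P* = 0.00024) for the first period and 9 of 9 cattle higher.

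Glycerol channels serve glycerol and triacylglycerol metabolism, of which 10 of 13 genes were measured. limma called 3 higher and 4 lower for the first period, 5 and 3 for the second, and 1 and 0 for the total period, with medians of −0.24, 0.38 and −0.08, while of all probes 66.5, 71.5 and 20.1% were called. GPD2, the mitochondrial glycerol-3-phosphate dehydrogenase, had 0.91 for the first and 0.60 for the total period, each with 9 of 9 cattle higher. DGAT2, which makes triacylglycerol, had −1.61 and 1.34 for the first and second periods, with 5 of 9 middle arrays measuring it. MGLL, monoacylglycerol lipase, had −0.95 for the second period, with 9 of 9 cattle lower.

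In the osmotic stress response 5 of 10 genes were measured, and limma called 2 higher and 2 lower for the first period, 1 and 2 for the second and 0 and 0 for the total period, beside the same 66.5, 71.5 and 20.1% of all probes. NFAT5, the transcription factor of hypertonic stress, had 0.99 (SE 0.13, limma adjusted *P* = 4.93e-06) for the first and −1.13 for the second period, with 9 of 9 cattle in each direction. LRRC8A, a subunit of volume-regulated anion channels, was measured on no middle array, and its signal there was at least 1.12-fold lower than in early RE, set against the lowest signal well above background on each middle array. Of 9 genes for the epithelial sodium channel and the sodium pump 6 were measured, with 1 higher and 1 lower, 2 and 1, and 1 and 0 called by limma, and medians of 0.13, −0.03 and 0.24. SCNN1A, a subunit of that channel, had −1.33 (SE 0.23, limma adjusted *P* = 6.79e-05) and 1.68, in 9 of 9 cattle each. ATP1B1, a pump subunit, had 0.77 for the first and 0.57 for the total period.

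Probes most like each gene were sought over the 27 arrays among 6764 probes well above background and complete on every array. For AQP3 they were SQSTM1, YARS and ECHS1, with *r* of 0.945, 0.928 and 0.927. With stage means removed these became 0.433, 0.400 and 0.132, so the likeness lay mostly between stages. SQSTM1 had log2FC of −2.45 and 2.11 for the first and second periods. For the other genes likeness held within stages too. SLC14A1 was most like GRB7 and CDC34 (0.874 and 0.870, and without stage means 0.871 and 0.854). AQP1 was most like GNG11, BC146245 and PLXDC1 (0.883, 0.872 and 0.871), and AQP5 most like SLC25A42, CLCN3 and HINT2 (0.906, 0.884 and 0.878). AQP8 was most like DPEP3, HCRT and FXYD5 (0.969, 0.933 and 0.930), and DPEP3 had log2FC of −0.36, −2.13 and −2.49 in order. Arrays of 1 animal are not independent, so these values are descriptions.

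Some of these genes are neighbors in the genome. In the RefSeq table of ARS-UCD2.0, used for names and order, AQP7 and AQP3 are adjacent coding genes, as are AQP5 and AQP2, and SLC14A2 and SLC14A1. The AQP7 probe, at chr8:76469468-76469527 on UMD 3.1, is shown as that of the gene next to AQP3, and its signal was not well above background on 8 of 9 middle arrays.
AQP7: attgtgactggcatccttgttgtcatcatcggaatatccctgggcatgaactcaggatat
AQP2 and its neighbor AQP5 (probe at chr5:30080725-30080784) did not go together, with first-period log2FC of −1.86 and 0.33. AQP6, on the other side of AQP5, and AQP5 were both called lower in the second period (−1.94 and −0.54). AQP5 turned to 0.31 after normexp correction, though, and the late signal of AQP6 was faint. SLC14A1 (chr24:45923673-45923732) and SLC14A2 (chr24:45860129-45860188) were called in no comparison. The remaining probes lie at chr4:65831008-65831067 (AQP1), chr24:30375530-30375589 (AQP4), chr25:23078921-23078980 (AQP8), chr10:52151992-52152051 (AQP9) and chr29:18480216-18480275 (AQP11). GC content ran from 30% for AQP1 to 53.3% for AQP5. The longest run that any of the 9 probes shares with a probe of another gene, on either strand, was 13 to 16 bases.

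**Figure D5:**
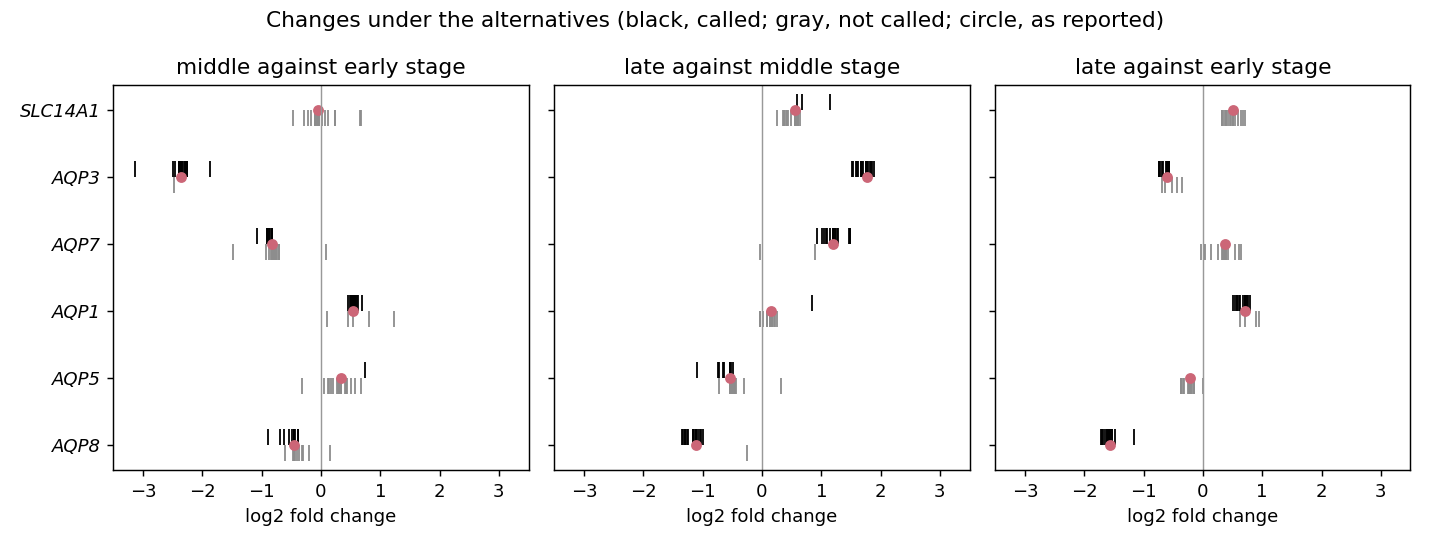
Tick marks give the log2FC of 6 genes under each alternative setting, black where called and gray where not, and red circles give the value as reported. AQP3 stays left of 0 for the first period and right of 0 for the second, AQP8 stays left of 0 for the total period, and SLC14A1 lies on both sides of 0 for the first period.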

How the data were processed

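The authors read 1-color arrays with Agilent Feature Extraction, whose deposited processed signal is a background-subtracted intensity on a linear scale, and the deposited flags are 0 or 1 per spot (other). The headers give version 11.0.1.1 and the notes 9.5. The deposited log2 values of the authors are near log2 signal less the 75th percentile of each array (largest difference of an array's median 0.0207, largest SD over probes 0.0286), and served as an alternative after centering on the array median, which repeats the reported values and adds no separate support. Extraction notes name neutrophils and liver, the tissue label rumen epithelium, and markers of each are reported.

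Spots of a probe were averaged (15110 spots, 15008 probes), log2 signal was centered on the array median, and outlier spots were left missing (0 of 243 values of the 9 genes). limma 3.58.1 in R 4.3.3 fitted stage with the animal as a block. Labels number the 9 arrays of each stage, and equal numbers were taken as the same animal, because the methods use paired tests. After removal of stage means, same-animal arrays correlated by 0.158 on average (24 of 27 pairs above 0), different animals by −0.0197. *P* values were Benjamini-Hochberg adjusted over all probes, and a fold change of 2 was a second threshold. Exact two-sided tests flipped signs of the 9 within-animal differences in 512 ways. Summaries used Python 3.11.15 with pandas 2.3.3, NumPy 2.4.6, SciPy 1.17.1 and Matplotlib 3.10.9. The number of arrays limits the precision.

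Named are the 9 genes, other aquaporins and urea transporters, and from each list the measured gene with the largest called rise and fall per comparison, the brightest marker, and up to 3 probes most like a gene, and some genes these rules name are not reported here. Members and lists were chosen with earlier results of these data known. Alternatives were 75th percentile scaling, quantile normalization, cyclic loess, normexp with offset 50, dim probes removed, outlier spots kept, the log2 table, no animal block, slide as random block (statmod 1.5.0) or fixed block, only slide 2, the methods' t-test, 2 stages per fit, and each animal left out. Chosen after seeing the data were leaving out the 3 cattle with the dimmest or the brightest middle arrays, and the first scan day.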

Additional observations from a re-analysis of the deposited data

Results flagged for a closer look

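Single arrays stood far from the other 8 of their stage, by the gap to the nearest over the whole range, in 3 of 27 combinations of gene and stage. Chance gives about 1 in 20 for independent, normally distributed values. These combinations share arrays and include genes near background, so no excess over chance is read from the count. In early RE the AQP1 level of animal 6 was 6.88, with 4.88 to 5.85 on the other arrays. On the same array AQP7 was −4.67 and not well above background, with −1.56 to −1.04 on the others, and without animal 6 the total-period log2FC of AQP7 was 0.015 instead of 0.38. That array also had the highest summed fibroblast, muscle and hepatocyte markers of its stage, 750, 236 and 83.2, whose part in either level was not tested. The AQP9 level of animal 4 in early RE was −1.41, on the only array with AQP9 well above background, with −5.14 to −4.53 on the others.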

How the results depend on the processing

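Among 454 alternative fold changes of the 9 genes, leaving out comparisons in which no array measured the gene, 389 kept their side of the threshold, 14 of them with opposite sign and not called either way. The centered log2 table, which restates the reported values, is among them. Another 56 lost and 5 gained a call, and 4 called ones turned. After normexp these were AQP7 (0.082 first, −0.041 second period) and AQP5 (0.313 second), and with slide as fixed block AQP8 (0.154 first). For the first period the 7 called genes became 4 under quantile normalization, 3 of 5 after cyclic loess, 4 of 6 without dim probes, 4 with no replicate block, 2 with slide as fixed block, and 0 by limma within slide 2 (2 at unadjusted *P* below 0.05). The 9986 probes became 4383 of 6764 after cyclic loess, 6366 of 10165 without dim probes, 1238 with slide as fixed block and 7 of 15002 within slide 2. For the second period the 7 genes became 4 under quantile normalization, 3 of 5 after cyclic loess and 4 of 6 without dim probes, and the 10734 probes became 4761 and 6898 under the latter pair. For the total period the 3 genes became 1 after normexp, 1 with slide as random block and 1 without the 3 cattle with the brightest middle arrays. The 3019 probes became 1976 after cyclic loess, 1194 after normexp, 250 with slide as random block, 4814 with 2 stages per fit and 1092 without those 3 cattle. Cyclic loess and removal of dim probes test fewer probes, and otherwise the cause was not tested. Counts of all probes under quantile normalization and with no replicate block are not reported here. The counts of genes under a setting are therefore no result about the family. Leaving out each animal gave 5 to 7, 6 to 8 and 2 to 3 genes, and 9391 to 9862, 10308 to 10687 and 2266 to 3129 probes. Slide 2 and the first scan day hold no late arrays, and slide as fixed block could not be fitted for late comparisons. Signal over background limits AQP4, AQP7, AQP9 and AQP11.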
